A study of Mus musculus with 157 samples.

Results

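The 6 libraries compared here measured RNA polymerase II (Pol II) at promoters of mouse E14 embryonic stem cells, a wild-type line grown on gelatin with serum and leukaemia inhibitory factor, after 48 h in 1 µM retinoic acid (RA). They are 3 libraries of Pol II whose C-terminal repeat carries phosphate on serine 5 (Ser5p) and 3 libraries of total Pol II (antibody to its N-terminal domain, NTD), of 157 samples in the series, and all are crosslinked ChIP-seq. All promoter windows with both readouts were used: 33671 RefSeq transcripts, counted within 1 kb of the start site on either side, of which 30376 transcripts of 20998 genes had enough reads to be tested. Total NTD stands as the reference for Ser5p in the same window. The 6 h libraries (3 of each antibody, RA at the same dose) and the 0 h libraries (2 of each antibody, no RA) were used to ask whether a ratio seen at 48 h was also there earlier. The windows held 1504710, 2374999 and 2148814 reads in the Ser5p libraries and 1394283, 2739270 and 1088155 reads in the NTD libraries. Values are CPM (counts scaled to a common library size) after TMM scaling, and each log2 ratio is Ser5p over NTD relative to the typical promoter. The antibodies share no absolute scale, so a ratio of 0 means the ratio of a typical promoter and not equal numbers of molecules. No input library entered these tables.

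The largest subunit of Pol II ends in a long repeat whose serines are phosphorylated as transcription proceeds. Serine 5 is phosphorylated by the CDK7 kinase of the general factor TFIIH as the polymerase starts and clears the promoter, and serine 2 later, by CDK9 and related kinases, as it moves into the gene. In mouse embryonic stem cells, silent developmental genes bound by Polycomb proteins are known for carrying Ser5p at their promoters with little productive transcription. RA binds nuclear receptors and moves these cells out of pluripotency, with the 3′ Hox genes among its earliest targets.

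The promoters below are examples of genes with a single RefSeq promoter. Of these, 4 were called with low Ser5p for their total Pol II (Arid5a, Pts, Rcl1 and Insig1) and 1 with high Ser5p (Golph3l). The last, the patterning gene Lhx9, had a high ratio but was not called. The gene with the lowest ratio, Atp1b2, is not among them. Each is the RefSeq sequence of the 250 bases before the start site of that promoter on GRCm38.p6, 5′ to 3′ on the gene's strand. Every CG dinucleotide is in capitals. For Pts and Golph3l that start site lies inside the annotated span of the gene, so the last bases printed overlap it. The Arid5a promoter is chr1:36307483-36307732 on the plus strand with 13 CG, Pts is chr9:50528657-50528906 on the minus strand with 17, and Rcl1 is chr19:29101125-29101374 on the plus strand with 24. Insig1 is chr5:28071162-28071411 on the plus strand with 34 CG, Golph3l is chr3:95588684-95588933 on the plus strand with 7, and Lhx9 is chr1:138842445-138842694 on the minus strand with 4.
Arid5a: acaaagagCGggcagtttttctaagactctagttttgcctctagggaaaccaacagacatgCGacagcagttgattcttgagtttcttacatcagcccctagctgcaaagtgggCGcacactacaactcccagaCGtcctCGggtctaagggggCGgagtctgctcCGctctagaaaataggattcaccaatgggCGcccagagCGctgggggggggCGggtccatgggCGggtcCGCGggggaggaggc
Pts: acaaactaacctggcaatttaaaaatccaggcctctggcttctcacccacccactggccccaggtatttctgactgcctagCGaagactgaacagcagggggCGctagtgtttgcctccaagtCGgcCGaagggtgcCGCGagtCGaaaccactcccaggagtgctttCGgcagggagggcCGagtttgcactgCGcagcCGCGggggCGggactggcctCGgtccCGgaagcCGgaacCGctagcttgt
Rcl1: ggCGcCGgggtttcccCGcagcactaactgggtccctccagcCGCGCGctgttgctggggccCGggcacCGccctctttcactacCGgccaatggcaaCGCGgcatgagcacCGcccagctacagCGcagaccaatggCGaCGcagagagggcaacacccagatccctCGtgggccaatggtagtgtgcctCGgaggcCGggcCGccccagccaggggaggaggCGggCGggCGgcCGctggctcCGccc
Insig1: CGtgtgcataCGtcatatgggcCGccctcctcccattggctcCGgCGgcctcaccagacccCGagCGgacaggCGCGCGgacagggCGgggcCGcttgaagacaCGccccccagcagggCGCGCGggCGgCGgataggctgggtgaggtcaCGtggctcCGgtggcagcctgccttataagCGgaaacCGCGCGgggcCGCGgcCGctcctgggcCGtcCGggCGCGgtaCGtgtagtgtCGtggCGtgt
Golph3l: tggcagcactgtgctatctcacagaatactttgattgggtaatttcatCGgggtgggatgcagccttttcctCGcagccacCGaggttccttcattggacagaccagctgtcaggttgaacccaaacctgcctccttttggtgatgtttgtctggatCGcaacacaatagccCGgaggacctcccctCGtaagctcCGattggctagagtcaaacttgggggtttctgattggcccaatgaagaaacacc
Lhx9: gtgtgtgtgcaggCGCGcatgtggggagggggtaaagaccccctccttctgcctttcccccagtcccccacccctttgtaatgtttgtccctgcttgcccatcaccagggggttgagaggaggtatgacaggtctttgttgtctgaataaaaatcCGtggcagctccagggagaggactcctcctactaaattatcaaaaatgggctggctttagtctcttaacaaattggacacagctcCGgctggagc

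One of the 4 genes with high Ser5p was a microRNA gene, Mir15a, which lies beside Mir16-1 on chromosome 14. Their mature 5p products share the seed (bases 2 to 8, in capitals), which 10 mature mouse microRNA names in the RefSeq table hold. They are at chr14:61632075-61632096 and chr14:61631936-61631957, both on the minus strand.
mmu-miR-15a-5p: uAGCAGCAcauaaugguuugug
mmu-miR-16-5p: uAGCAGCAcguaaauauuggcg

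At 48 h Ser5p followed total Pol II closely from promoter to promoter. Over the 20998 genes, each given by its most highly read transcript, the log2 ratio lay between -0.40 and 0.79 for the middle 90% of genes, which is 0.76 to 1.72 times the typical ratio. Its median was 0.03 and its quartiles were -0.17 and 0.33. Only 1.81% of genes lay beyond 2-fold, 377 with a higher and 3 with a lower ratio. By edgeR's quasi-likelihood test with Benjamini-Hochberg adjustment over all transcripts, 29 genes (0.138% of genes tested) were called, 4 with a higher ratio (0.019%) and 25 with a lower one (0.119%). Of these, 3 genes (0.0143%) reached a log2 ratio of 1 and 2 genes (0.00952%) a log2 ratio of -1. The 3 Ser5p libraries lay above all 3 NTD libraries at 1583 genes (7.54%) and below all of them at 1458 genes (6.94%), and 1993 genes (9.49%) had an unadjusted p under 0.05. In transcripts the calls were 49 (0.161%), of which 7 (0.023%) were higher and 42 (0.138%) lower, since isoforms that share a start share their reads. With the authors' scale factors, which were set for each table on its own, they were 304 higher and 0 lower. With the replicate number as a block in the fit they were 230 higher and 650 lower, so the number of calls depends on whether same-numbered libraries are pairs. Of the 49, 4 (0.0132%) reached a log2 ratio of 1 and 7 (0.023%) a log2 ratio of -1. Nothing in the labels says that replicates are separate cultures, so the p-values measure the spread between these libraries, which may be technical.

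Atp1b2, which encodes a beta subunit of the sodium-potassium pump and lies at chr11:69599728-69605978, had the least Ser5p for its Pol II of any promoter called. Its Ser5p signal was 27.8, 30.2 and 28 CPM, against 82.6, 89.2 and 94.7 CPM of NTD. Both sets of libraries were tight and far apart, with a log2 ratio of -1.62 ± 0.21 (SE, n = 3 each) and an adjusted p of 9.03e-11 by edgeR. Arid5a, an AT-rich interaction domain protein that binds mRNAs of inflammatory genes and lies at chr1:36307733-36324037, had 50.7, 50.7 and 62.1 CPM of Ser5p, against 107, 129 and 108 CPM of NTD. Its groups did not overlap, and its log2 ratio was -1.07 ± 0.21 with an edgeR adjusted p of 7.81e-04. These were the 2 genes whose edgeR call held when any 1 of the 6 libraries was left out, with log2 ratios of -1.69 to -1.59 for Atp1b2 and -1.17 to -0.98 for Arid5a.

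The other genes with low Ser5p lay at smaller ratios, between -0.99 and -0.81 on the log2 scale. Pts, a synthase in the pathway of the cofactor tetrahydrobiopterin, had 21, 23.6 and 20.2 CPM of Ser5p, against 43.8, 47 and 36.2 CPM of NTD (log2 ratio -0.99 ± 0.20, edgeR adjusted p = 0.00432). Tcf15, a basic helix-loop-helix factor of the paraxial mesoderm, had 43.9, 35.4 and 29.4 CPM of Ser5p, against 69, 75.8 and 59.4 CPM of NTD (log2 ratio -0.94 ± 0.20). Rcl1, a ribosome assembly factor, had 44.5, 45 and 43.7 CPM of Ser5p, against 84, 92.5 and 75.2 CPM of NTD (log2 ratio -0.93 ± 0.20). In all of them the highest Ser5p library stayed under the lowest NTD library. Abhd5, a co-activator of fat breakdown, had 45.2, 38.9 and 34.5 CPM of Ser5p, against 71.8, 88 and 58.5 CPM of NTD (log2 ratio -0.91 ± 0.20). Insig1, which holds the sterol-sensing complex in the endoplasmic reticulum, was the busiest named here with 104, 123 and 130 CPM of Ser5p, against 196, 244 and 200 CPM of NTD (log2 ratio -0.84 ± 0.21, edgeR adjusted p = 0.0438). Mrps5, a mitochondrial ribosomal protein gene, had 26, 25.3 and 22.1 CPM of Ser5p, against 41.7, 43 and 50.1 CPM of NTD. The start of Zfp661 on the opposite strand lies within 1 kb of it, so their reads cannot be told apart.

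Kat6a, a histone acetyltransferase, had 40.2, 46.3 and 32.2 CPM of Ser5p, against 63.9, 92.9 and 61.2 CPM of NTD (log2 ratio -0.91 ± 0.20). Taf4, a subunit of the general factor TFIID, had 65.6, 69 and 58.4 CPM of Ser5p, against 97, 158 and 97.4 CPM of NTD (log2 ratio -0.89 ± 0.21). The Taf4 window overlaps that of 4921531C22Rik on the opposite strand, which was also called, and ChIP-seq cannot tell those reads apart. Kmt5b, a histone H4 methyltransferase, had 50.1, 60.3 and 50.6 CPM of Ser5p, against 99.8, 102 and 85.4 CPM of NTD (log2 ratio -0.84 ± 0.20). Ss18, a subunit of the BAF remodelling complex, had 53.8, 60.3 and 41.4 CPM of Ser5p, against 91.2, 100 and 78.9 CPM of NTD (log2 ratio -0.81 ± 0.20). The rest were Lmtk2, Pnp, Ptms, Slc16a10, Tpst1, Dexi, Tmem134, Gadd45g, Ptpa, Mia2, Tmem87b and Lysmd2.

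**Figure D1:**
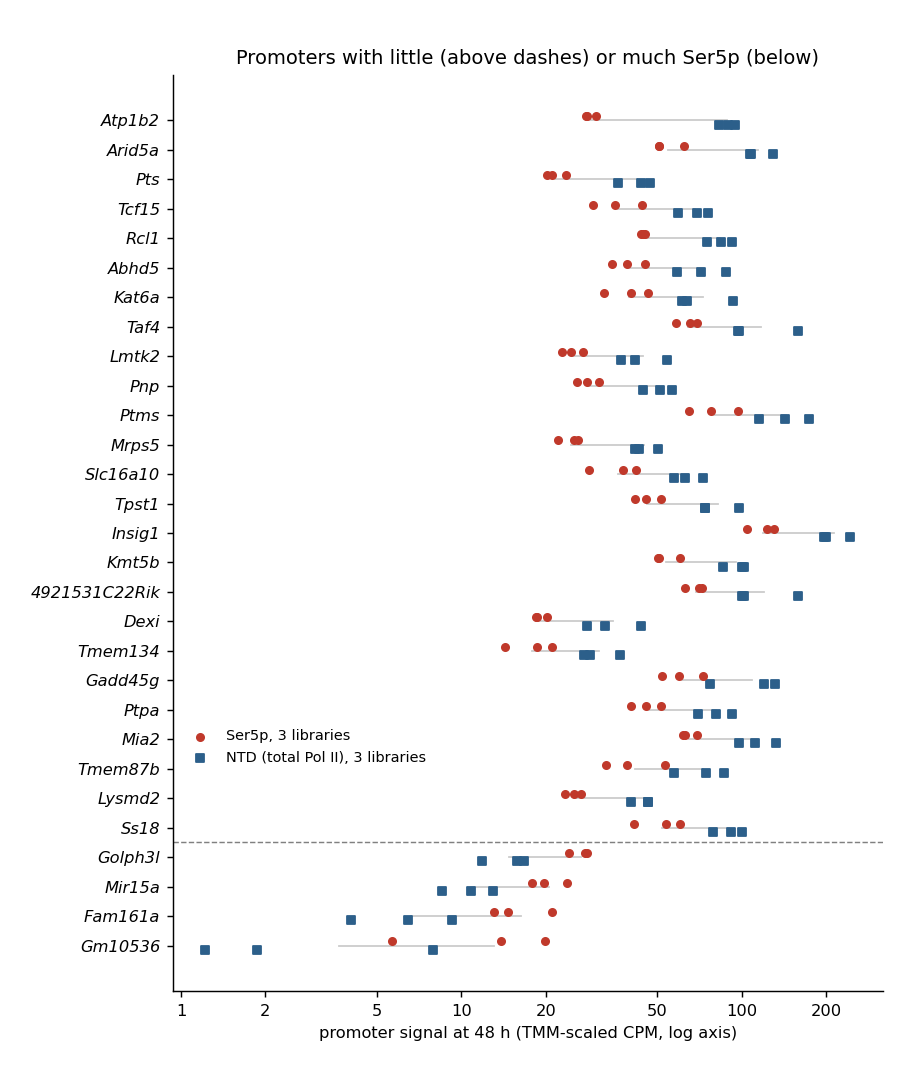
Promoter signal at 48 h in CPM on a log axis, with 1 point for each Ser5p library (circles) and each NTD library (squares), for each of the 29 called genes. Above the dashes the Ser5p points sit left of the NTD points, with the widest gap at Atp1b2 (27.8 to 30.2 against 82.6 to 94.7 CPM), and below the dashes they sit right of them, except at Gm10536, where the groups overlap.

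The 25 genes had a mean signal over the 6 libraries of 24.5 to 166 CPM, with a median of 58.8 CPM, so all were well-occupied promoters. The plot of the called promoters shows the separation by library. A loess scaling, which removes any trend of the ratio with signal level, left all 25 with a ratio below 0 and 13 of them called. DESeq2 called 15 of the 25. Leaving out a library kept 2 of the 25 called without NTD replicate 2 or without Ser5p replicate 3, 4 without Ser5p replicate 2, 11 without NTD replicate 3, 12 without Ser5p replicate 1 and 14 without NTD replicate 1. All 25 kept their sign in each of those fits.

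The low ratio of these genes was present in libraries that had no part in choosing them. Across 0, 2, 4, 6, 24 and 72 h their median log2 ratio, relative to the median of all genes at that time, was -1.0, -0.83, -0.96, -0.97, -0.76 and -0.72. At each of those times all 25 genes lay below 0. The Ser5p libraries lay below every NTD library at 24, 21, 22, 24, 24 and 22 of the 25 genes, in the same order of times, which is 84 to 96%. Among the 9782 genes with at least 20 CPM the same held for 63.7, 33.7, 37.2, 41.9, 41.1 and 34.5%. The median of those busy genes was itself below 0 at each of the 7 times, between -0.42 and -0.16. Set against genes of like signal at the same time, the median of the 25 was still -0.59, -0.59, -0.54, -0.62, -0.55 and -0.50.

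Atp1b2 shows the same picture gene by gene. Its Ser5p signal, scaled over all times, lay between 28.6 and 43 CPM in the libraries of the other 6 times and its NTD signal between 76.2 and 122 CPM. Its log2 ratio was -1.47 at 0 h, -1.31 at 2 h, -1.43 at 4 h, -1.63 at 6 h, -1.38 at 24 h and -1.25 at 72 h. Arid5a was between -1.26 and -0.94 at those times. Insig1 ranged more widely, from -1.24 at 0 h to -0.62 at 24 h. In each of these 3 genes the Ser5p and NTD libraries did not overlap at any time. No test was made at the other times, because the genes were chosen at 48 h.

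Sequence was not used to choose these genes. Of the 25 genes, 16 have a single RefSeq promoter, and these had a median GC content of 66.2%, against 62% for the genes with at least 20 CPM and 58% for all genes tested. In the 250 bases before the start their median was 19 CG dinucleotides, against 12 for all tested genes with a single promoter. Their median ratio of observed to expected CG was 0.812, against 0.824 for genes with at least 20 CPM and 0.658 for all tested genes. By that ratio they were like other busy promoters. The motif GGGCGG, on either strand and in the window of 250 bases before to 50 after the start, was found in 13 of the 16 (81.2%), against 70.9% of genes with at least 20 CPM, 52% of all tested genes and 35.7% of all 32851 RefSeq promoters. Single promoters varied, and Arid5a had 58% GC in its 250 bases. The motif TATAAA was found in 2 of the 16 (12.5%), against 6.54% of genes with at least 20 CPM, 11.6% of all tested genes and 13.6% of all RefSeq promoters. These are descriptions of letters and not of binding. Of the 16 genes, 13 have no other RefSeq start within 1 kb and 3 have one on the opposite strand.

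Over gene bodies, signal in FPKM was close to that of other genes, although promoter NTD was higher at the 25 genes. Its median was 80.8 CPM, against 44 CPM for genes with at least 20 CPM at the promoter. The median log2 of NTD body FPKM over promoter CPM was -5.59, against -4.95 for those busy genes and -4.03 for all genes. Promoter NTD had a part in choosing the 25 genes, so that contrast is not independent of the choice. The 25 genes had a median NTD body signal of 1.17 FPKM and Ser2p body signal of 1.12 FPKM, against 1.37 and 1.23 FPKM for genes with at least 20 CPM at the promoter. Their median log2 ratio of Ser2p over NTD in the body was -0.31, against -0.13 for the busy genes and 0.04 for all genes. The NTD libraries are the same in both readouts, so body and promoter values of NTD are not independent.

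High Ser5p was called at few genes, all with modest signal. Golph3l, a Golgi phosphoprotein gene at chr3:95588915-95619247, had 24.1, 28 and 27.6 CPM of Ser5p, against 15.8, 11.8 and 16.7 CPM of NTD (log2 ratio 0.92 ± 0.23, edgeR adjusted p = 0.0438). The start of Gm40097 on the opposite strand lies within 1 kb of it, and ChIP-seq cannot tell their reads apart. Mir15a had 17.9, 19.7 and 23.9 CPM of Ser5p, against 10.8, 8.52 and 13 CPM of NTD (log2 ratio 1.01 ± 0.26, edgeR adjusted p = 0.0472). Mir16-1 shares most of that window and had a log2 ratio of 1.02 but an edgeR adjusted p of 0.0692. Both microRNAs sit inside a longer host transcript, so the window measures Pol II along that transcript and not a start of their own. Fam161a, a gene of a ciliary base protein of photoreceptors, had 21, 13.1 and 14.7 CPM of Ser5p, against 6.46, 4.05 and 9.28 CPM of NTD (log2 ratio 1.40 ± 0.33, edgeR adjusted p = 0.0302).

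The remaining gene, the predicted noncoding Gm10536, had 19.8, 5.68 and 13.8 CPM of Ser5p, against 7.9, 1.22 and 1.86 CPM of NTD, and these libraries overlapped despite a log2 ratio of 1.90 ± 0.46. A second transcript of Ankib1, a ubiquitin ligase gene, was also called at a log2 ratio of 1.20 ± 0.30. The 4 genes had a mean signal of 8.37 to 20.7 CPM. None of them was called by DESeq2, after loess scaling, without NTD replicate 2, without Ser5p replicate 1 or without Ser5p replicate 3, and all kept a ratio above 0 there. At the other 6 times their median log2 ratio lay between 0.25 and 0.53, and the Ser5p libraries lay above every NTD library at 0 to 4 of the 4 genes. All genes with under 20 CPM had medians of 0.24 to 0.42 at those times, with Ser5p above every NTD library at 27.9 to 58% of them. Set against genes of like signal, the medians of the 4 genes were 0.08 to 0.32.

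Across all genes the ratio moved with the level of signal. When genes were ordered by their signal at 6 h, the lowest decile had a median log2 ratio of 0.42 at 48 h and the highest decile -0.16. At 48 h the lowest decile by 48 h signal held 6.63 CPM of Ser5p, against 4.97 CPM of NTD, and the highest held 95.4 CPM of Ser5p, against 109 CPM of NTD. The same direction was present at every other time. Relative to all genes, those with at least 20 CPM at 48 h had medians of -0.42 at 0 h, -0.33 at 6 h and -0.16 at 48 h. Genes with under 20 CPM had 0.42, 0.37 and 0.23. At 48 h the size of the slope rested largely on single libraries. Without NTD replicate 2 the medians of the lowest and highest decile were 0.09 and -0.05, and without Ser5p replicate 1 they were 0.23 and -0.06. Leaving out any of the other 4 libraries gave 0.37 to 0.60 for the lowest decile and -0.25 to -0.16 for the highest. Libraries also differed within an antibody in how far busy promoters stood above silent ones. The median ribosomal protein gene promoter had 10.2, 22.1 and 18.7 times the signal of the median olfactory or vomeronasal receptor promoter in the Ser5p libraries, against 17, 46.6 and 20.4 times in the NTD libraries. The receptor genes are not known to be active in these cells, and the part of that contrast in the ratio was not tested.

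**Figure D2:**
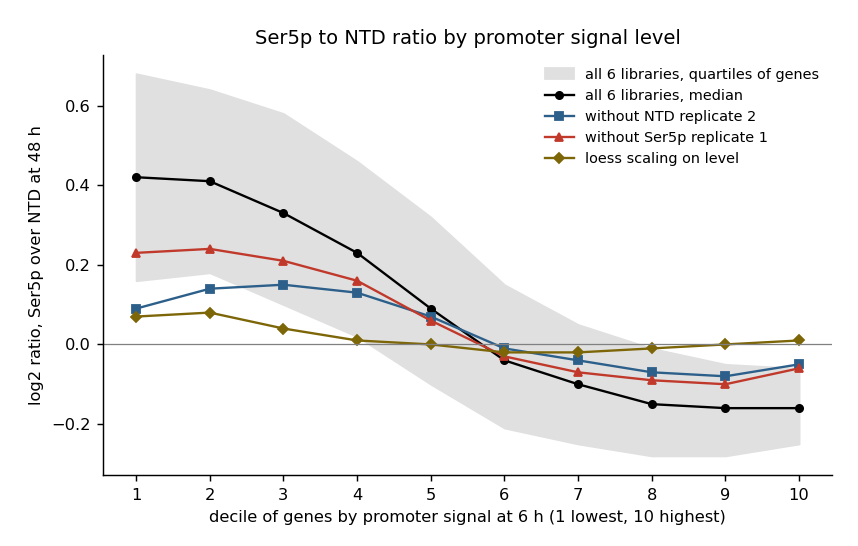
Median log2 ratio of Ser5p over NTD at 48 h (vertical axis) in deciles of genes ordered by promoter signal at 6 h (horizontal axis), for all 6 libraries, with single libraries left out and with loess scaling. The grey band spans the quartiles of genes. With all libraries the line runs from 0.42 in the lowest decile to -0.16 in the highest, and without NTD replicate 2 from 0.09 to -0.05.

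Base composition followed the same gradient. The fifth of genes with the lowest promoter GC content had a median log2 ratio of 0.39 and the fifth with the highest -0.14, and after loess scaling these were 0.13 and -0.07. The decile of genes with the highest ratio had a median GC content of 47.3% and held TATAAA in 22.5% of promoters, against 65.3% and 5.12% in the decile with the lowest ratio. Protein-coding genes had a median log2 ratio of -0.01, long noncoding RNA genes 0.23 and microRNA genes 0.31. Median signal differed alongside, at 20.6, 9.02 and 9.96 CPM.

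Gene lists give the ratio by function. Apart from Mir15a, no list member passed the test, so lists are given by medians and by counts of genes whose libraries did not overlap, beside the 7.54% and 6.94% of all genes. Among 57 Polycomb-associated patterning genes tested, transcription factors of the early body plan, the median log2 ratio was 0.43, and Ser5p lay above all NTD libraries at 18 genes and below at 0. Their median signal was 15.5, 12.7 and 14.3 CPM of Ser5p, against 11.5, 9.33 and 10.2 CPM of NTD. The 23 posterior Hox genes (paralogues 6 to 13) had a median of 0.37, with 8 genes above and 0 below, whereas the 15 anterior Hox genes (paralogues 1 to 5) had a median of 0.01, with 2 above and 1 below. After loess scaling the medians were 0.15, 0.23 and 0.06.

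Lhx9, a LIM homeobox factor of gonad and limb, had the highest ratio among the patterning genes, with 11.8, 11.8 and 9.66 CPM of Ser5p, against 0.718, 3.65 and 4.64 CPM of NTD. These libraries did not overlap, but the log2 ratio of 1.85 ± 0.50 had an edgeR adjusted p of 0.0996. The median olfactory or vomeronasal receptor promoter held 7.18, 3.24 and 6.5 CPM in the same NTD libraries. The Lhx9 ratio thus rests on NTD signal near background. Nkx2-1, of the ventral forebrain, lung and thyroid, had 14.2, 11.8 and 13.3 CPM of Ser5p, against 9.34, 3.65 and 4.64 CPM of NTD (log2 ratio 1.21 ± 0.38). En1, of the midbrain and hindbrain, had 14.2, 13.5 and 9.66 CPM of Ser5p, against 5.03, 6.08 and 5.57 CPM of NTD (log2 ratio 1.13 ± 0.39). All 3 had Ser5p above every NTD library. Of the posterior Hox genes, Hoxc11 had 22.3, 10.5 and 11.5 CPM of Ser5p, against 10.1, 4.05 and 5.57 CPM of NTD, and Hoxc9 had 21.7, 13.1 and 12 CPM of Ser5p, against 7.18, 6.49 and 6.5 CPM of NTD. Their log2 ratios were 1.19 ± 0.35 and 1.17 ± 0.32, with edgeR adjusted p values of 0.161 and 0.116. Hoxd13 lay at -0.02 ± 0.26, its libraries overlapping.

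Other lists of weakly read genes lay above 0 too. The 58 clustered protocadherin genes, cell-surface identity proteins of neurons, had a median log2 ratio of 0.33 with 9 genes above and 0 below. The 1020 microRNA genes had 0.31, with 175 above and 14 below, and the 730 olfactory and vomeronasal receptor genes 0.53, with 80 above and 1 below. Of all genes with under 20 CPM, 10.9% lay above and 1.79% below at 48 h, when scaled over all times. On that scaling 11% of receptor, 15.3% of microRNA and 13.8% of protocadherin genes lay above, so the receptor share was that of weakly read genes. For patterning and posterior Hox genes it was 28.1% and 30.4%. Without NTD replicate 2 the receptor median was 0.17 and the protocadherin median 0.13, while the patterning median was 0.38 and the posterior Hox median 0.38. After loess scaling of all 6 libraries the medians were 0.19 for receptor, 0.12 for microRNA and 0.20 for protocadherin genes. The patterning median was then 0.15 and the posterior Hox median 0.23, so patterning genes did not stand above receptor genes. The 46 keratin-associated and defensin genes had a median of 0.55, and 0.24 after loess scaling. Small nucleolar RNA genes, which lie in introns of host genes, had a positive median at a higher signal. At a median of 35.9, 49.8 and 37.2 CPM of Ser5p, against 32.3, 33.7 and 31.6 CPM of NTD, the 113 tested had a median log2 ratio of 0.24, and 0.35 after loess scaling. Ser5p lay above all NTD libraries at 16 of them and below at 1. The decile of all genes with a median of 37.8 CPM of Ser5p, against 41.6 CPM of NTD, had a median log2 ratio of -0.15.

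Lists of active genes lay near or slightly below 0. The 22 immediate early genes had the lowest median, -0.22, and it was -0.06 after loess scaling. Of the 39 genes of C-terminal repeat kinases, phosphatases and pausing factors, 8 had Ser5p below all NTD libraries and 0 above, with a median of -0.15 and of 0.00 after loess scaling. These are busy promoters, with a median of 63.2 CPM, and of all genes with at least 20 CPM 15.4% had Ser5p below all NTD libraries at 48 h, when scaled over all times. Examples are Ctdsp2, a phosphatase of the repeat, at -0.55 ± 0.20, and the elongation factor Ell2 at -0.48 ± 0.20. The 17 heat shock genes had a median of -0.11, with Dnajb1, an Hsp70 co-chaperone, at -0.55 ± 0.20. The 77 cytosolic ribosomal protein genes lay at -0.09, the 62 histone genes at -0.03, the 92 oxidative phosphorylation genes at -0.08 and the 24 glycolysis and reference genes at -0.09. Actb had 481, 460 and 483 CPM of Ser5p, against 570, 486 and 499 CPM of NTD (log2 ratio -0.13 ± 0.22).

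**Figure D3:**
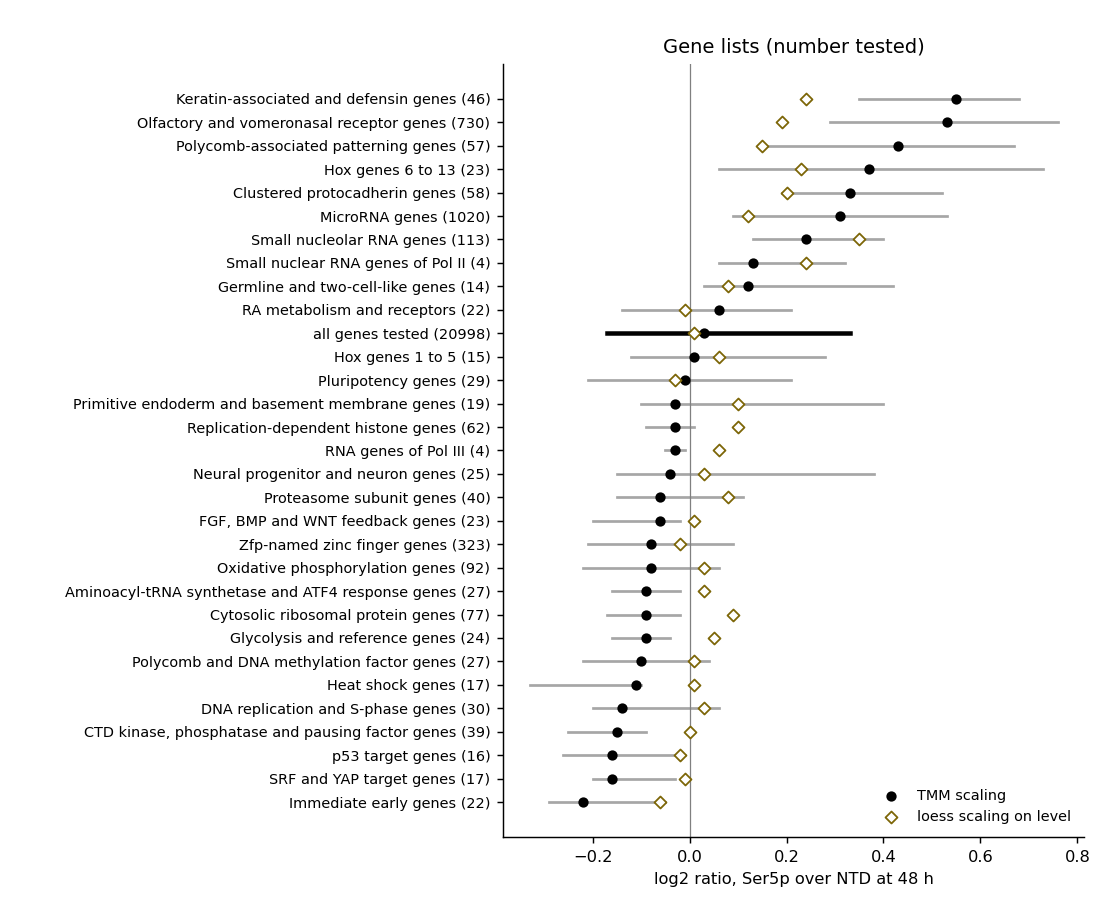
Median log2 ratio of Ser5p over NTD at 48 h for each gene list (black points, bars spanning the quartiles of members) and after loess scaling (open diamonds), with the number of genes tested in brackets. Patterning genes (0.43), posterior Hox genes (0.37) and receptor genes (0.53) lie above the median of all genes (0.03). Loess scaling brings these lists to 0.15, 0.23 and 0.19 but leaves the small nucleolar RNA genes at 0.35.

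The 22 genes of RA metabolism and its receptors had a median log2 ratio of 0.06 with 0 genes above and 0 below. Rarb, the RA receptor that is itself an RA target, had 148, 116 and 128 CPM of Ser5p, against 181, 142 and 132 CPM of NTD, a log2 ratio of -0.22 ± 0.21. Cyp26a1, the enzyme that degrades RA, had 52.6, 66.9 and 34 CPM of Ser5p, against 63.9, 107 and 29.7 CPM of NTD, and its libraries overlapped at a log2 ratio of -0.46 ± 0.20. Among the 29 pluripotency genes the median was -0.01, with Pou5f1 at 18.6, 19.2 and 13.3 CPM of Ser5p, against 24.4, 16.6 and 12.1 CPM of NTD. Sox1, a neural progenitor factor, had 17.9, 14.9 and 22.1 CPM of Ser5p, against 25.9, 23.5 and 27.8 CPM of NTD, which did not overlap, but its log2 ratio of -0.47 ± 0.22 did not pass the test. Cyp26a1 and Sox1 lay below the ratio that 5% of all genes fall under (-0.40). Pax6, also neural, lay at 0.15 ± 0.23 and Gata6, of primitive endoderm, at 0.42 ± 0.27.

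Summed over a library, 7 embryonic stem cell markers held 218 to 272 CPM of Ser5p, against 207 to 251 CPM of NTD, and 7 markers of RA treatment 397 to 526 CPM of Ser5p, against 404 to 587 CPM of NTD. The 4 primitive endoderm markers held 49.2 to 73.6 CPM of Ser5p, against 38.9 to 66.1 CPM of NTD, the 5 fibroblast markers 40.2 to 58.8 CPM of Ser5p, against 31.6 to 45.5 CPM of NTD, and 2 of 3 blood markers that were measured 15.3 to 28.5 CPM of Ser5p, against 10.9 to 19.5 CPM of NTD. No measured marker was at 0 in any library. In these bulk samples fewer cells of a type and less signal per cell cannot be told apart.

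Change of the ratio itself was tested through the antibody-by-time interaction. Between 48 h and 6 h, with 3 libraries in each of the 4 groups, edgeR called 0 transcripts higher and 0 lower (0 percent each), and so did DESeq2, while 1653 of 32140 transcripts (5.14%) had an unadjusted p under 0.05. The log2 change of the ratio, 48 h over 6 h, was below 0 at 48 of the 57 patterning genes and 22 of the 23 posterior Hox genes, with medians of -0.65 and -0.75, beside 9002 of 20998 genes and a median of 0.06 over all. None of these genes passed the test.

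Against 0 h, the ratio at 48 h was lower at 126 genes (0.6% of genes tested) and higher at 48 genes (0.229%) by edgeR. In transcripts these were 170 (0.523%) lower and 51 (0.157%) higher (210 and 23 when scaled to library totals), where DESeq2 called 3 and 0 and 2799 transcripts (8.6%) had an unadjusted p under 0.05. The patterning genes held 15 of the lower calls (26.3% of the 57) and 0 of the higher, with a median change of -1.45, and the posterior Hox genes 7 (30.4% of the 23), with a median of -1.54. Of the anterior Hox genes 1 of 15 was called lower. DESeq2 called 0 of the patterning and 1 of the posterior Hox genes, and without Ser5p replicate 4 of 0 h edgeR called 3 and 2 of them. Leaving out any other library of either time gave 6 to 38 and 4 to 17, the most without Ser5p replicate 1 of 0 h. The 126 genes had median Ser5p signals, scaled over these 2 times, of 13.9, 12.5 and 12.8 CPM at 48 h, against 22.4 and 46.6 CPM at 0 h. Their median NTD signals were 11.6, 12.1 and 11.8 CPM at 48 h, against 7.65 and 6.46 CPM at 0 h. Each of these medians was lower for Ser5p and higher for NTD in the 48 h libraries. The genes were chosen for a lower ratio in these same libraries, so lower Ser5p or higher NTD at 48 h follows from the choice. Of the 126, 69 were also called without NTD replicate 4 of 0 h and 23 without Ser5p replicate 4 of 0 h, and 126 kept their sign in both. The lower transcripts were 694 without Ser5p replicate 1 of 0 h and 36 without its replicate 4. Of the 48 h libraries, leaving out NTD replicate 1 or 2 gave 112 or 86, and leaving out Ser5p replicate 1 or 2 gave 74 or 62.

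Foxl2, a forkhead factor of the ovary and eyelid, had 15.6, 15.9 and 15.5 CPM of Ser5p at 48 h, against 33.4 and 83.4 CPM at 0 h. Its NTD signal was 14, 12.9 and 12.8 CPM at 48 h, against 5.46 and 5.83 CPM at 0 h, so that the ratio changed by -2.96 ± 0.45 on the log2 scale (edgeR adjusted p = 6.23e-04). Hoxd13, the last gene of its cluster, had 13.9, 15.9 and 11.1 CPM of Ser5p at 48 h, against 30.8 and 67 CPM at 0 h. Its NTD signal was 9.8, 13.8 and 21 CPM at 48 h, against 7.65 and 5.83 CPM at 0 h (change -2.80 ± 0.45, edgeR adjusted p = 9.62e-04). In both genes, which were picked from the calls in these same libraries, Ser5p and NTD had separate ranges at the 2 times and moved in opposite directions. Barhl2 and Pax2, homeobox and paired-box factors of the nervous system and kidney, changed by -2.94 ± 0.54 and -2.73 ± 0.56. The windows of Foxl2 and its antisense transcript Foxl2os, also called, share reads.

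At 47 of the 48 genes with a higher ratio at 48 h, NTD replicate 4 of 0 h was the highest of the 10 libraries. The exception was Slc25a30, a mitochondrial carrier gene, chosen after its values were seen, with 54.1 and 54.2 CPM of NTD at 0 h and a log2 change of 1.18, or 1.05 without NTD replicate 4 of 0 h. Over the 48 the median NTD signal was 16.1, 17.3 and 16.9 CPM at 48 h, against 20.5 and 141 CPM at 0 h, and without NTD replicate 4 of 0 h none of the 48 was called, 27 kept their sign and 21 turned it. The higher transcripts were 187 without NTD replicate 1 and 103 without Ser5p replicate 1 of 0 h. They were 17 or 25 without NTD replicate 2 or 3 and 8 or 13 without Ser5p replicate 1 or 2 of 48 h. Arg1 had 14.7, 8.35 and 6.38 CPM of NTD at 48 h, against 7.65 and 198 CPM at 0 h. Of the 25 genes with low Ser5p at 48 h, edgeR called 0 as changed against 0 h, and their median change was 0.14.

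From group means, the median ratio of the patterning genes was lower at each successive time of the course. That of the 25 genes was low throughout. In order of time, 0 h, 2 h, 4 h, 6 h, 24 h, 48 h and then 72 h, the median log2 ratio of the 57 patterning genes, from group means and relative to all genes, was 1.88, 1.57, 1.13, 1.05, 0.88, 0.40 and 0.30. For the 23 posterior Hox genes it was 1.97, 1.52, 1.17, 1.08, 1.07, 0.29 and 0.28. Set against genes of like signal, the patterning medians were 1.68, 1.37, 0.86, 0.69, 0.69, 0.17 and 0.19. Ser5p lay above every NTD library at 51, 50, 41, 44 and 48 of the 57 genes from 0 to 24 h. When scaled over all times, it did so at 16 of them at 48 h and at 26 at 72 h. All genes tested gave 33.2, 17.4, 17.9, 20.3, 24.2, 6.34 and 16% in order of time. The median Ser5p signal of the patterning genes, scaled over all times, was 14.5, 12.5 and 13.7 CPM at 48 h, against 21.5 and 42.6 CPM at 0 h. Their median NTD signal was 11.2, 9.6 and 10 CPM at 48 h, against 9.28 and 6.67 CPM at 0 h. Single replicates did not all follow the order of the group means. In replicate 1 the median Ser5p signal of these genes was 21.5 CPM at 0 h and 33.4 CPM at 2 h, with 9.28 and 8.19 CPM of NTD. Each time has its own libraries, and apart from the 48 h comparisons above no test was made along this course.

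**Figure D4:**
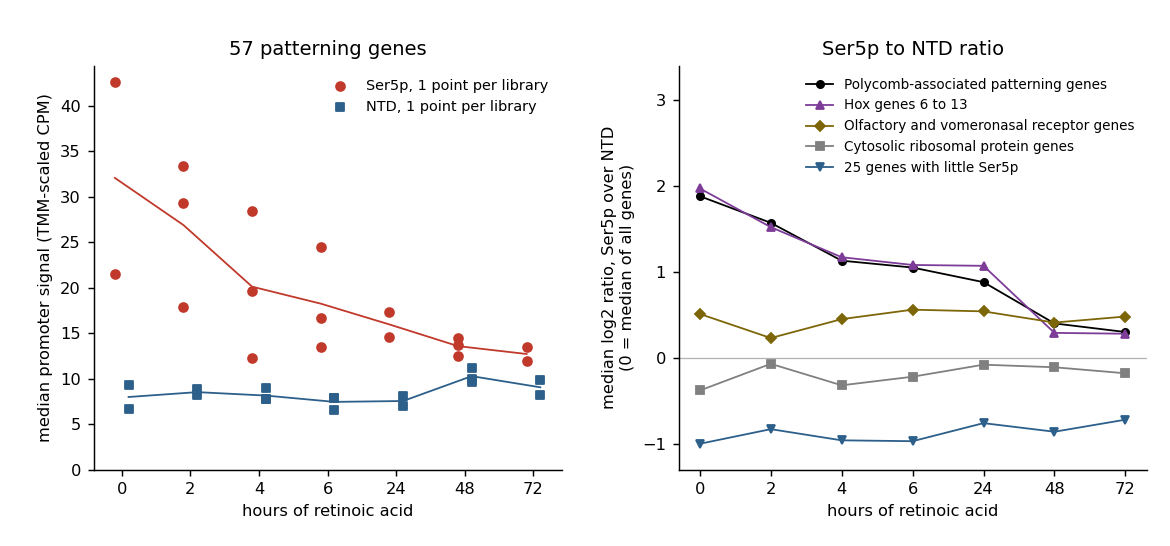
Left, median promoter signal of the 57 patterning genes in each Ser5p and NTD library by hours of RA (times evenly spaced, lines through the means of libraries). Right, median log2 ratio of Ser5p over NTD, with 0 the median of all genes, for gene classes by hours of RA. The patterning genes run from 1.88 at 0 h to 0.40 at 48 h and 0.30 at 72 h, and the 25 genes with low Ser5p stay between -1.0 and -0.72.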

How the data were processed

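The authors deposited raw read counts per RefSeq transcript within 1 kb of the start site for NTD and Ser5p, and FPKM over gene bodies for NTD and Ser2p, in crosslinked ChIP-seq libraries. The deposited normalized signal beside each count, per the file headers, was used only to read the authors' scale factors. Gene-body values are the deposited FPKM of the authors, used as they stand. The submitters' processing notes name DESeq2, MACS2, SAMtools and Bowtie2 and the builds mm10 and dm6. For tool versions and the counting tool: not given in the sources used here. Another 113 per-sample columns were not used.

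The 2 start-site tables (33687 and 33746 transcripts) were joined on the transcript identifier, leaving 33671, of which 79 had no symbol and held under 0.1% of counts in each library. Of these, 11681 had the same counts as another transcript. In R 4.3.3, edgeR 4.0.16 fitted the counts (TMM scaling, filterByExpr) and its quasi-likelihood test was read at a Benjamini-Hochberg adjusted p of 0.05 over all transcripts, with a coefficient of variation of 0.141 at 48 h, 0.123 with 6 h and 0.15 with 0 h. A gene is represented by its transcript with the highest mean CPM. DESeq2 1.42.0 and limma 3.58.1 (loess) served as alternatives, as did other scalings and filters, each library left out and a replicate block. Figures used Python 3.11.15 and matplotlib 3.10.9. On simulated data the 48 h test recovered 60.2% of 2-fold and 93% of 4-fold changes, and called 6 and 7 unchanged transcripts. The test of 48 h against 6 h recovered 25.5% and 83.4%, and called 2 and 13 unchanged transcripts. The simulated counts held no trend with signal level, no difference in contrast between libraries and no pairing. Recovery in the real libraries may therefore differ. A ± after CPM is an SD and after a log2 ratio an SE.

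Genes named by rule are the 10 highest and 10 lowest called ratios with a mean of at least 5 CPM and no overlap, 6 and 6 among the fifth with most NTD, called list members, the largest called changes against 6 h, and a fixed set of RA, pluripotency, lineage and reference genes. Others were named after their values were seen, and some are not reported here. Members, lists and tests were chosen with earlier results of these data known. Promoter and microRNA sequences are from RefSeq tables of GRCm38.p6, and 12937 tested genes had 1 promoter there. Positions are 1-based. Isoforms, overlapping genes and near-identical family members share reads.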

Additional observations from a re-analysis of the deposited data

Results flagged for a closer look

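The ratio of Ser5p to NTD differed between 48 h and 0 h, by a test of the difference itself, at 126 genes with a lower and 48 genes with a higher ratio at 48 h. Among the lower ones were 15 Polycomb-associated patterning genes and 7 posterior Hox genes. Ser5p replicate 4 of 0 h was the highest of the 10 libraries at 123 of the 126 (median 46.6 CPM), and 23 of the 126 were also called without it. NTD replicate 4 of 0 h was the highest at 47 of the 48 (median 141 CPM), and without it none of the 48 was called and 21 turned their sign.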

How the results depend on the processing

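Counts of transcripts moved with the processing. Of the 48 genes called higher against 0 h, 21 turned their sign without NTD replicate 4 of 0 h. At 48 h the 7 higher calls became 0 with DESeq2 or all times in one fit, 2 with DESeq2 size factors, no filter or 1 row per distinct counts, 3 with loess scaling, 11 with library totals and 304 with the authors' scale factors, and 0 to 5 with a library left out. Those factors were set for each table on its own and add about 0.21 to every log2 ratio, so the 42 lower calls became 0 there, 26 with loess scaling, 20 with no filter, 15 with distinct counts and 7 to 22 with a library left out. Calls at a log2 ratio of 1 or more (4) became 0 with DESeq2, all times in one fit, loess or a test against the 2-fold limit, 2 with DESeq2 size factors, at least 5 CPM, no filter or distinct counts, 304 with the authors' factors, and 0 to 5 with a library left out. Calls at -1 or less (7) became 0 with the authors' factors or the test against the limit, 1 with library totals, 2 with loess, 3 with distinct counts and 1 to 12 with a library left out. Against 0 h the 51 higher calls became 0 with DESeq2, 5 with all times in one fit, 23 with library totals and 0 to 187 with a library left out, and the 170 lower calls 3, with DESeq2, 108 with distinct counts and 36 to 694. Against 6 h the lower calls (0) became 3 with no filter and 0 to 18, and the higher stayed at 0 to 0, with a library left out. Causes were not tested.

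Same-numbered Ser5p and NTD libraries correlated at 0.35, 0.48 and 0.083 in their deviations from the group means. Each Ser5p library correlated best with the NTD library of its own number. NTD replicate 3, however, correlated best with Ser5p replicate 1 (0.17). Whether the numbers are pairs was left undecided, and the main fit did not use them. With a replicate block the counts were 230 higher and 650 lower at 48 h, 155 at a log2 ratio of 1 or more, 345 and 552 against 0 h, and 19 and 34 against 6 h. Over the alternatives, 498 values of single genes at 48 h kept their side of the threshold, 263 lost the call and 4 gained it. Depth limits genes of few reads most.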
